A study of Mus musculus with 70 samples.

Results

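The MHC class II genes of mouse were followed through forebrain microglial RNA in ageing, amyloid, tau and systemic inflammation. The set held 7 of the 43346 genes in the deposited table, namely Cd74, H2-Aa, H2-Ab1, H2-Eb1, H2-DMa, H2-DMb1 and Ciita. They were chosen by symbol, each symbol stood in 1 row, and all 7 were found. No measured value entered that choice, although the set was drawn up with earlier results of these data known.

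MHC class II molecules present peptides from endosomes to CD4+ T cells. H2-Aa and H2-Ab1 encode the alpha and beta chains of I-A, and H2-Eb1 encodes the beta chain of I-E. Cd74 encodes the invariant chain, which fills the peptide groove of newly made class II molecules and guides them to endosomes. H2-DMa and H2-DMb1 encode the chains of H2-DM, which exchanges the remnant of the invariant chain for other peptides. Ciita encodes the transactivator that is recruited to class II promoters and is induced by interferon gamma in many cells. In the brain, class II is low in resting microglia and higher in macrophages at its borders.

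All mice were double heterozygous for Cx3cr1-CreERT2-IRES-eYFP and Rpl22HA (RiboTag), so that tamoxifen (3 days at 100 µg/g, then a week of rest) tagged a ribosomal protein with HA in Cx3cr1-expressing cells, which include border macrophages as well as microglia. RNA bound to tagged ribosomes was pulled down from perfused forebrain in 60 libraries of 14 groups. Pulldowns came from mice 24 hours after intraperitoneal LPS (n = 3) with saline controls (n = 4), 24 hours after intraperitoneal Poly(I:C) (n = 3) with their own saline controls (n = 3), APP/PS1 mice of 9 to 10 months (n = 5) with RiboTag controls of that age (n = 5), and mice of 9 to 10 months injected with rAAV1 carrying TauP301L (n = 5) or GFP (n = 5). The ageing series held females of 3 (n = 5), 12 (n = 5) and 24 months (n = 4) and males of 3 (n = 5), 12 (n = 4) and 24 months (n = 4). Bulk forebrain input (n = 4) and sorted cells after saline (n = 3) or LPS (n = 3) completed the 70 libraries. Sorted cells were 7AAD-, CD11b+ and CD45 low or intermediate after 20 minutes of collagenase. LPS is a bacterial ligand of a Toll-like receptor and Poly(I:C) a mimic of viral double-stranded RNA. Promoters of the transgenes and vectors, the strain, and the ages of the mice in the LPS and Poly(I:C) studies do not appear in the sources used here. The sex of the mice is not given outside the ageing series.

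Values were RPKM, which scale reads by the coding length of the gene and by the size of the library, at 20.5 M to 47.2 M gene reads per library (M, megareads). Differences are given on the scale of log2(RPKM + 1) with the standard error of the limma fit, and a gene was called at a Benjamini-Hochberg adjusted p under 0.05 over all genes whose mean reached 1 RPKM. On this scale the change of a gene near 1 RPKM is understated. The labels do not say for each library that it is a separate animal, so p-values measure the spread between libraries, part of which may be technical. In bulk RNA of this kind, fewer cells of a type and less RNA per cell cannot be told apart. The summed level of 8 homeostatic microglia markers was 18.1 to 21.6 RPKM in input and 195 to 1538 RPKM in pulldowns.

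Class II promoters are known for an ordered pair of elements, an X box bound by the RFX complex and, nearer the gene, a Y box bound by NF-Y, on which the CIITA protein assembles. The promoter windows of RefSeq (GRCm38.p6, 250 bases before to 50 after each start) matched 4 of the 7 genes by symbol, H2-Aa, H2-Eb1, H2-DMa and H2-DMb1. Both windows listed for H2-DMa lie upstream of the start that the deposited table gives the gene and do not reach it, so the bases next to that start were not searched and H2-DMa is left out of the comparison. The windows were searched on both strands for GNAAC, a core of the X box, followed on the same strand by the Y box core ATTGG 20 to 35 bases later, counted from first base to first base. The pair was found in H2-Aa, H2-Eb1 and H2-DMb1. Of 32851 windows of this length, 2.79% held the pair, 37.4% held ATTGG and 84.8% held GNAAC. A match is a description of letters, and its absence says only that the letters are not in that window. The stretches of H2-Aa (minus strand, chr17:34287847-34287934) and H2-Eb1 (plus strand, chr17:34305746-34305832) are shown because they lay out the shared arrangement, with GNAAC and ATTGG in capitals.
H2-Aa: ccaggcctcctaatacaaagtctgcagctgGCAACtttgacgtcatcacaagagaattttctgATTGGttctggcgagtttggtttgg
H2-Eb1: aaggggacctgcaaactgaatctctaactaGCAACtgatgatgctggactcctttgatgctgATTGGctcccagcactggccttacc

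The distance from the first base of GNAAC to that of ATTGG was 33 bases in H2-Aa, 32 in H2-Eb1 and 33 in H2-DMb1. In H2-DMb1 the X core lay inside the gene as the deposited table bounds it, so only that core and its nearest bases are shown (plus strand, chr17:34153093-34153116), with GNAAC in capitals.
H2-DMb1: cctaGTAACtgatgatgctaggct

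Cd74 lay at chr18:60803848-60812646 (mm10) and the I-A, I-E and H2-DM genes within the class II region of chromosome 17, H2-DMa at chr17:34135182-34139101, H2-DMb1 at chr17:34153072-34160230, H2-Ab1 at chr17:34263209-34269418, H2-Aa at chr17:34282744-34287827 and H2-Eb1 at chr17:34305877-34316199. Ciita lay at chr16:10488178-10527564. The microRNA gene Mir5107 overlaps Cd74 and Dexi overlaps Ciita, so reads of those pairs may be shared. H2-DMb1 has a near-identical neighbour, H2-DMb2, between which the counting could split reads.

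All members but Ciita were far more abundant in the pulldown than in whole forebrain. Cd74 was at 0.607, 0.608, 0.470 and 0.602 RPKM in the 4 inputs and at 69.9, 64.9, 27.1 and 25.1 RPKM in the 4 saline pulldowns. The groups did not overlap, and the 4 pulldowns fell into a higher and a lower pair. H2-Aa stood at 0.116, 0.194, 0.396 and 0.172 RPKM in input and 20.4, 19.7, 6.08 and 7.67 RPKM in pulldown, with the same higher pair. The difference in log2(RPKM + 1) was 4.78 ± 0.32 (SE; adjusted p = 3.73e-05) for Cd74, 3.61 ± 0.31 (SE; adjusted p = 5.03e-05) for H2-Ab1, 3.40 ± 0.34 (SE; adjusted p = 7.15e-05) for H2-Aa, 2.86 ± 0.32 (SE; adjusted p = 0.000101) for H2-Eb1 and 2.10 ± 0.25 (SE; adjusted p = 0.000114) for H2-DMa. These genes passed the level filter through the pulldown, so their count is no evidence by itself, and 67.3% of all genes tested were called in this comparison. H2-DMb1 was at 0.0430, 0.0874, 0.0461 and 0.0322 RPKM in input, from 4 to 10 reads, and at 2.66, 2.29, 1.05 and 1.09 RPKM in pulldown, and its difference without the filter was 1.35 ± 0.20 (SE; adjusted p = 0.00131). Ciita was low on both sides, at 0.248, 0.188, 0.254 and 0.182 RPKM in input and 0.475, 0.493, 0.408 and 0.417 RPKM in pulldown, and without the filter its difference was 0.25 ± 0.04 (SE; adjusted p = 0.00314).

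**Figure D1:**
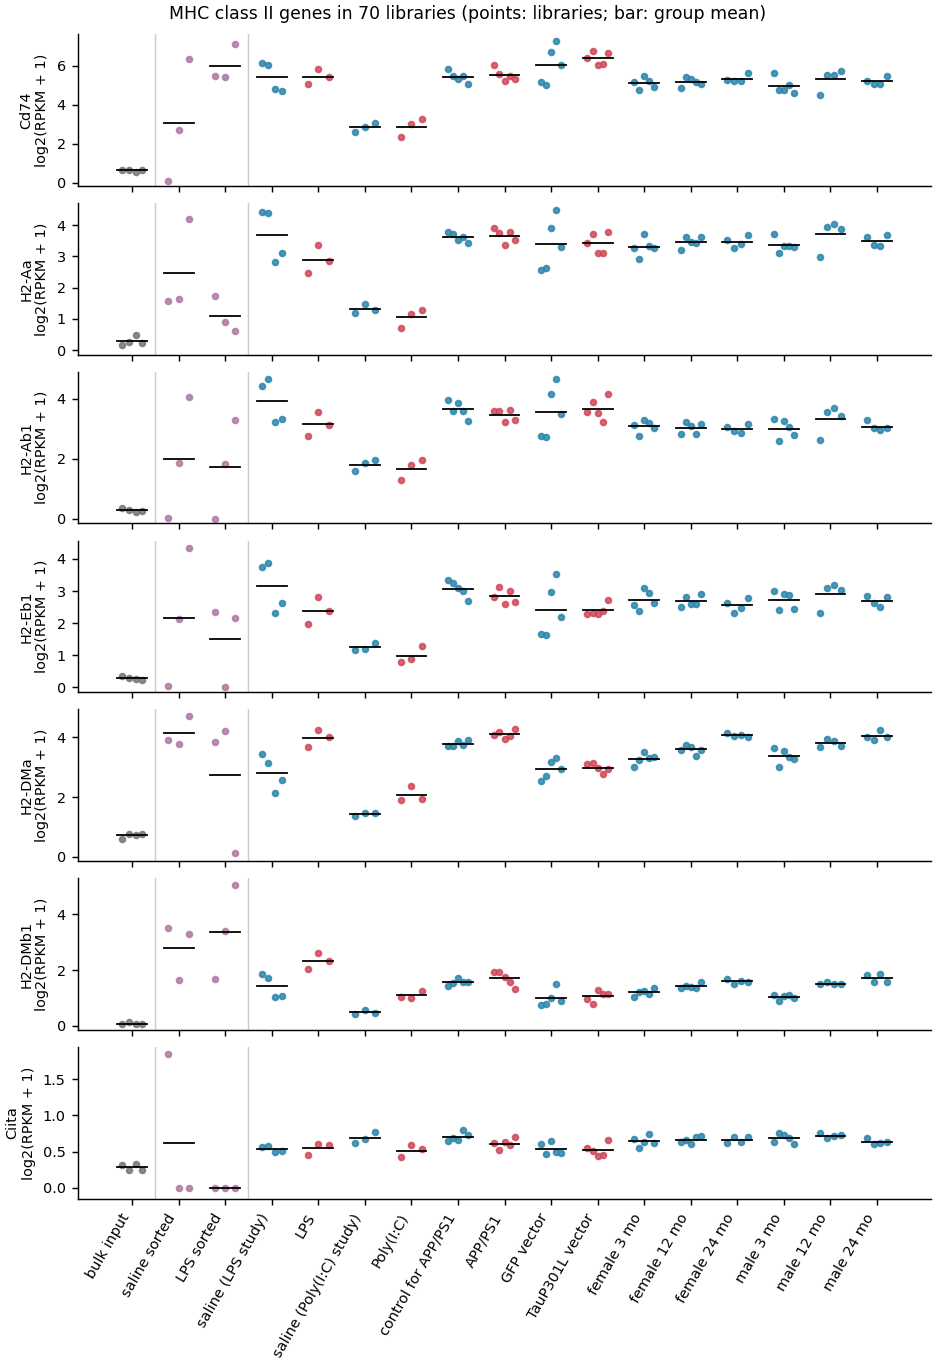
Level of each gene as log2(RPKM + 1) in all 70 libraries, in 17 groups, with a point per library and a bar at the group mean of that scale (grey, input; purple, sorted cells; blue, control and ageing pulldowns; red, pulldowns after a challenge, transgene or TauP301L vector). The input stays near the bottom of the 6 upper panels, sorted libraries scatter over most of the range, and the 2 groups of the Poly(I:C) study have the lowest pulldown means of Cd74, H2-Aa, H2-Ab1, H2-Eb1 and H2-DMa.

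Among the 14 pulldown groups Cd74 was the most abundant member per length, with a median library of 37.2 RPKM and a range of 4.16 to 151 RPKM. The median library was at 10.9 RPKM for H2-DMa, 9.39 for H2-Aa, 8.33 for H2-Ab1, 5.21 for H2-Eb1, 1.61 for H2-DMb1 and 0.547 for Ciita. Ciita kept to 0.337 to 0.733 RPKM in all 60 pulldowns, from 112 to 391 reads. By group mean, Cd74 ran from 6.28 ± 1.04 (SD, n = 3) and 6.65 ± 2.34 (SD, n = 3) RPKM in the saline and Poly(I:C) groups of the Poly(I:C) study to 76.9 ± 50.2 (SD, n = 5) RPKM with the GFP vector and 84.6 ± 18.7 (SD, n = 5) RPKM with TauP301L. The other 10 group means lay between 31.2 and 46.7 RPKM. Of the 13 steps between neighbours in that order, only the 1 from the Poly(I:C) study to the next group was larger than the larger SD of the pair. Neighbouring groups above that step were thus not resolved for Cd74, and groups further apart were not compared by this rule. For example, the TauP301L libraries, at 65.0 to 108 RPKM, lay above all LPS pulldowns, at 32.1 to 56.5 RPKM. For H2-Aa, H2-Ab1 and H2-Eb1 too, only the step up from the Poly(I:C) study exceeded the spread.

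H2-DMa was ordered more finely, with 5 of its 13 steps larger than the larger SD of the pair. Its group means rose from 1.72 ± 0.122 (SD, n = 3) RPKM in the saline controls of the Poly(I:C) study through 3.26 ± 0.801 (SD, n = 3) RPKM after Poly(I:C) to 6.51 ± 2.92 (SD, n = 4) RPKM in the saline pulldowns of the LPS study. The GFP and TauP301L groups followed, then the mice of 3 months. At the top, without a step beyond the spread between neighbours, were APP/PS1 controls, 12-month males, LPS, 24-month males, 24-month females and APP/PS1 at 16.3 ± 1.47 (SD, n = 5) RPKM. The ends of that row did differ, with 12.0 to 13.9 RPKM in APP/PS1 controls and 14.6 to 18.3 RPKM in APP/PS1. H2-DMb1 had 3 such steps and Ciita none. The saline group of the Poly(I:C) study was lowest in microglia markers too, at 195 to 206 RPKM summed over the 8 homeostatic markers. The Poly(I:C) group, at 293 to 403 RPKM, overlapped the males of 3 months at 319 to 396 RPKM. Mean Cd74 was 31.2 RPKM in those males and 6.65 RPKM after Poly(I:C). The part of microglia marker levels in the low class II levels was not tested.

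Among the other class II genes, H2-Oa and H2-Ob encode H2-O, a modulator of H2-DM. H2-Oa group means in pulldowns ran from 0.386 RPKM after Poly(I:C) to 2.57 RPKM in APP/PS1, and those of H2-Ob from 0.252 RPKM after Poly(I:C) to 1.64 RPKM in APP/PS1. H2-DMb2, the second H2-DM beta chain gene, was at 0.239 to 0.586 RPKM by pulldown group, 0.164 RPKM in input and 2.57 ± 2.55 (SD, n = 3) RPKM in saline sorts. H2-Eb2 was under 0.1 RPKM in every pulldown and input library. H2-Ea-ps, the row of the alpha chain that would pair with H2-Eb1 and is a pseudogene in the reference strain, reached at most 0.101 RPKM, from 4 reads.

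Sorted cells gave class II levels that were not shared between the libraries of a group. Cd74 was at 0.0585, 5.56 and 80.3 RPKM in the 3 saline sorts, the lowest from 7 reads and the highest from 9567 reads. After LPS it was at 43.5, 41.1 and 137 RPKM in sorted cells. The genes did not vary together: in saline sort 1, Ciita reached 2.61 RPKM from 1160 reads while Cd74, H2-Ab1 and H2-Eb1 had 7, 2 and 3 reads, and the other 5 sorted libraries held at most 1 read of Ciita. H2-DMb1 had 4785 reads and H2-DMa 16 reads in LPS sort 3, whereas H2-Eb1 had no read in LPS sort 2. Chi-squared per degree of freedom between replicate libraries was 315 to 810 in sorted cells. Sorted libraries also carried neutrophil genes, at 5384, 18050 and 10360 RPKM summed over 8 markers after saline and 12260, 48310 and 16300 RPKM after LPS, against at most 24.4 RPKM in any pulldown or input. The part of those cells in the class II values was not tested.

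Against saline sorts, the saline pulldowns differed in 1 of 6 tested members, where 43.1% of all genes tested were called. H2-DMa was lower in the pulldown, at 9.91, 7.82, 3.39 and 4.92 RPKM against 14.1, 12.8 and 25.2 RPKM, with a difference of -1.32 ± 0.39 (SE; adjusted p = 0.0279). Summed homeostatic microglia markers were lower in the pulldown too, at 504 to 1538 RPKM against 2645 to 2716 RPKM. The part of that in the H2-DMa difference was not tested. The difference for Cd74, 2.38 ± 1.32 (SE; adjusted p = 0.191), was not called. Without saline sort 3, which carried most reads of Cd74, H2-Aa, H2-Ab1 and H2-Eb1 in its group, 4 of the 6 were called. Without saline pulldowns 3 or 4, or both, none was. Shares of all genes called in these fits are not given here, so these counts have no background beside them. LPS against saline in sorted cells called none of 6, where 72 genes were called (0.627% of those tested). Cd74 there had the smallest unadjusted p, with 2.95 ± 1.28 (SE; adjusted p = 0.406), and no member was called by the voom fit on recovered reads. No member was called for the LPS effect in pulldowns minus that in sorted cells either, where the difference was 2.56 ± 1.16 (SE; adjusted p = 0.548) for H2-DMa and -2.93 ± 1.61 (SE; adjusted p = 0.644) for Cd74, and 0.259% of genes tested were called.

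After LPS, the H2-DM genes were higher in the pulldowns and no other member was called. H2-DMa was at 9.91, 7.82, 3.39 and 4.92 RPKM after saline and 12.0, 17.9 and 15.1 RPKM after LPS, and H2-DMb1 was at 2.66, 2.29, 1.05 and 1.09 RPKM after saline and 3.11, 5.06 and 3.96 RPKM after LPS. All LPS libraries lay above all saline libraries for both genes, as they did for 22.2% of all genes tested. H2-DMa rose by 1.16 ± 0.31 (SE; adjusted p = 0.0419) and H2-DMb1 by 0.89 ± 0.24 (SE; adjusted p = 0.043), so 2 of 6 tested members were called, where 12.3% of all genes tested were. Cd74 was at 32.1, 56.5 and 42.0 RPKM after LPS, inside the range of the saline libraries, and differed by 0.01 ± 0.41 (SE; adjusted p = 0.988). The chain genes had negative estimates that were not called, with -0.79 ± 0.42 (SE; adjusted p = 0.282) for H2-Aa, -0.76 ± 0.39 (SE; adjusted p = 0.251) for H2-Ab1 and -0.76 ± 0.40 (SE; adjusted p = 0.272) for H2-Eb1. Ciita was at 0.373, 0.519 and 0.500 RPKM after LPS, 1 library below and the other two above all 4 saline libraries, with 0.01 ± 0.06 (SE; adjusted p = 0.935) without the filter. The median difference over the 6 tested members was -0.37, beside 0.11 over all genes tested.

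The LPS result rested on which saline pulldowns were counted. Saline pulldowns 1 and 2 had the higher class II levels and summed homeostatic microglia markers of 1303 and 1538 RPKM, while pulldowns 3 and 4 had 504 and 558 RPKM. The 3 LPS pulldowns lay at 1008, 1312 and 1068 RPKM on the same sum. Without saline pulldowns 3 and 4, an alternative chosen after seeing the data, the LPS libraries were lower, with differences of -1.50 for H2-Aa (adjusted p = 0.0186), -1.40 for H2-Ab1 (adjusted p = 0.0209) and -1.43 for H2-Eb1 (adjusted p = 0.0193). Those 3 were then the members called, and the differences of H2-DMa (0.69, adjusted p = 0.0906) and H2-DMb1 (0.52, adjusted p = 0.151) kept their sign and were not called. Both H2-DM calls were also lost without saline pulldown 3 or 4 or LPS pulldown 3 or 4 in turn, that of H2-DMa also without LPS pulldown 1 (adjusted p = 0.0541), and both under a fit shared with the sorted libraries (adjusted p = 0.866 and 0.932). Their estimates lay between 0.52 and 1.37 in all alternatives.

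After Poly(I:C), both H2-DM genes lay higher in every library than in any saline library, of which H2-DMa passed the level filter and was called. Summed homeostatic microglia markers were higher too, at 293 to 403 RPKM against 195 to 206 RPKM with 5 of 8 called. The sum of 5 monocyte markers was also higher, at 5.46 to 8.71 RPKM against 2.65 to 2.89 RPKM. Only 2 of these passed the level filter and 1 was called, Plac8 at 2.20 ± 0.17 (SE; adjusted p = 0.000276). A rise of the other monocyte markers was thus not shown. The part of either in the H2-DM values was not tested. H2-DMa was at 1.57, 1.78 and 1.79 RPKM after saline and 2.75, 4.18 and 2.84 RPKM after Poly(I:C), with no overlap (15.3% of all genes tested did the same), and rose by 0.63 ± 0.14 (SE; adjusted p = 0.0332). It was the 1 member called of 5 tested, where 6.5% of all genes tested were called. H2-DMb1, under the level filter, was at 0.353, 0.475 and 0.381 RPKM after saline and 1.03, 1.01 and 1.40 RPKM after Poly(I:C), also without overlap, and without the filter its difference was 0.61 ± 0.10 (SE; adjusted p = 0.0483), where H2-DMa was not called (adjusted p = 0.111). Cd74 was at 5.19, 6.39 and 7.26 RPKM and 4.16, 7.01 and 8.79 RPKM, and its groups overlapped. The differences of Cd74 (0.03), H2-Aa (-0.26), H2-Ab1 (-0.13) and H2-Eb1 (-0.26) were not called. Ciita, also under the level filter, was at 0.541, 0.594 and 0.703 RPKM after saline and 0.337, 0.507 and 0.445 RPKM after Poly(I:C). Its difference without the filter was -0.17 ± 0.08 (SE; adjusted p = 0.528) and was not called. The H2-DMa call was lost without any one saline library or Poly(I:C) library 1 (highest adjusted p = 0.131), under voom on recovered reads (adjusted p = 0.0511) and with scaling (adjusted p = 0.0541). The LPS effect minus the Poly(I:C) effect was called for none of the members, with 0.52 ± 0.38 (SE; adjusted p = 0.753) for H2-DMa and -0.64 ± 0.49 (SE; adjusted p = 0.772) for H2-Ab1, where 0.194% of genes tested were called.

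In APP/PS1 mice H2-DMa was again the member that rose. It was at 12.0, 12.1, 13.9, 12.4 and 13.9 RPKM in the 5 controls and 15.8, 17.2, 14.6, 15.5 and 18.3 RPKM in the 5 APP/PS1 libraries, all of them above all controls, as for 1.23% of all genes tested. The difference was 0.32 ± 0.06 (SE; adjusted p = 0.0406), the 1 call among 6 tested members, where 1.31% of all genes tested were called. Its H2-DM partner H2-DMb1 was at 1.68, 1.91, 2.24, 1.99 and 1.97 RPKM in controls and 2.77, 2.78, 2.37, 1.99 and 1.51 RPKM in APP/PS1, with overlap and a difference of 0.14 ± 0.11 (SE; adjusted p = 0.535). Differences of 0.11 ± 0.16 (SE; adjusted p = 0.761) for Cd74, 0.05 ± 0.10 (SE; adjusted p = 0.833) for H2-Aa, -0.19 ± 0.12 (SE; adjusted p = 0.456) for H2-Ab1 and -0.23 ± 0.13 (SE; adjusted p = 0.378) for H2-Eb1 came with overlapping groups as well. The genes of H2-O lay higher in every APP/PS1 library than in any control without being called, by 0.36 ± 0.09 (SE; adjusted p = 0.0676) for H2-Oa and 0.36 ± 0.08 (SE; adjusted p = 0.0559) for H2-Ob. The H2-DMa call was lost when any one of 7 of the 10 libraries was left out, at adjusted p up to 0.0932, with estimates from 0.28 to 0.35. It was also lost without the level filter (adjusted p = 0.0942) and with a replicate block (adjusted p = 0.153).

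With TauP301L no member was called, where 161 genes (1.25% of those tested) were. The GFP controls spread widely: Cd74 was at 35.4, 31.2, 102, 151 and 65.0 RPKM in the 5 GFP libraries and 83.7, 108, 65.0, 67.9 and 98.8 RPKM with TauP301L. The TauP301L values lay inside the range of the controls, and the difference was 0.36 ± 0.38 (SE; adjusted p = 0.697). H2-DMa was at 4.76, 5.51, 8.03, 8.84 and 6.63 RPKM with GFP and 7.68, 7.80, 6.83, 5.85 and 6.66 RPKM with TauP301L, with a difference of 0.06 ± 0.14 (SE; adjusted p = 0.871). No member had an unadjusted p under 0.05, and voom called none. The amyloid effect minus the tau effect was 0.26 ± 0.16 (SE; adjusted p = 0.473) for H2-DMa, and none of the members was called for it, where 0.847% of genes tested were. A rise of H2-DMa with amyloid and not with tau was therefore not shown to differ.

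**Figure D2:**
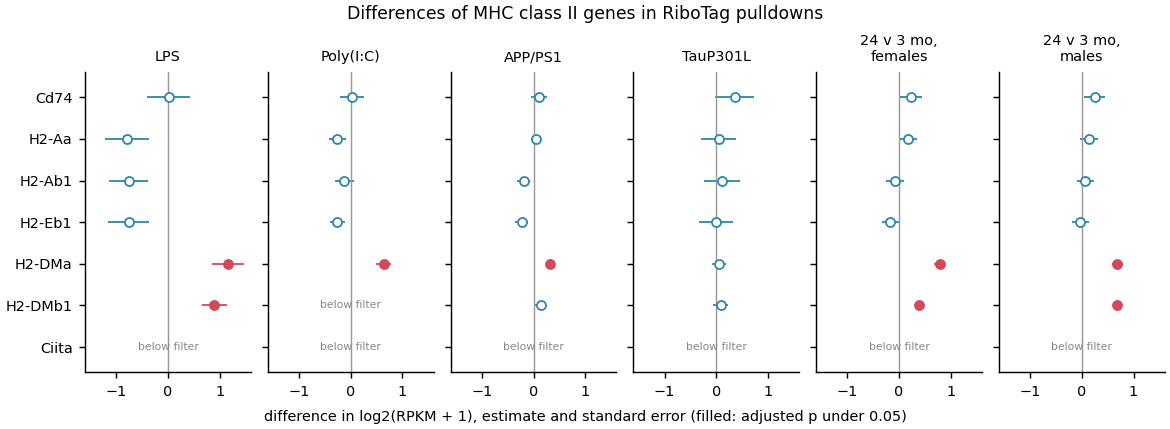
Difference in log2(RPKM + 1) of each gene in 6 comparisons of RiboTag pulldowns, with the estimate as a point and its standard error as a line (filled red, adjusted p under 0.05; open blue, not called; the words mark genes under the level filter). H2-DMa is filled in all comparisons but TauP301L, H2-DMb1 after LPS and at 24 months, and Cd74 and the chain genes H2-Aa, H2-Ab1 and H2-Eb1 are open throughout. The LPS calls are lost without saline pulldowns 3 and 4, where the chain genes were called as lower.

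Ageing gave the clearest change, and it was a rise of H2-DM. In females H2-DMa was at 7.06, 8.38, 10.3, 8.91 and 9.21 RPKM at 3 months, 11.0, 12.4, 11.9, 9.47 and 11.1 RPKM at 12 months and 16.7, 15.5, 15.8 and 15.2 RPKM at 24 months. In males it was at 11.5, 7.09, 10.7, 9.13 and 8.75 RPKM at 3 months, 11.8, 14.3, 13.9 and 12.1 RPKM at 12 months and 15.1, 14.2, 17.9 and 15.3 RPKM at 24 months. No library of 24 months overlapped one of 3 months in either sex, as for 16% of all genes tested in females and 12.7% in males in that direction. From 3 to 24 months H2-DMa rose by 0.79 ± 0.10 (SE; adjusted p = 4.68e-06) in females and 0.68 ± 0.10 (SE; adjusted p = 2.35e-05) in males.

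H2-DMb1 followed. It was at 1.05, 1.32, 1.34, 1.20 and 1.58 RPKM in females of 3 months and 2.20, 1.80, 2.05 and 2.00 RPKM in those of 24 months, and at 1.16, 0.845, 1.08, 1.14 and 1.01 RPKM in males of 3 months and 2.52, 1.98, 2.63 and 1.96 RPKM in those of 24 months. The rise was 0.39 ± 0.07 (SE; adjusted p = 0.00019) in females and 0.67 ± 0.07 (SE; adjusted p = 8.32e-08) in males. In each sex 2 of 6 tested members were called between 3 and 24 months, where 20.1% of all genes tested were called in females and 23.4% in males. Summed homeostatic microglia markers were also higher at 24 months, from 334 to 424 RPKM summed at 3 months to 445 to 511 RPKM at 24 months in females and from 319 to 396 RPKM to 489 to 527 RPKM in males, with 2 and 7 of 8 called. Summed levels of 6 neuron markers were 152 to 175 RPKM at 3 months and 156 to 170 RPKM at 24 months in females, with 1 called as lower, and 162 to 178 RPKM and 144 to 157 RPKM in males, with 3 called as lower. The part of these cells in the H2-DM values was not tested. The 4 H2-DM calls held in all alternatives in which the gene was tested, with a highest adjusted p of 0.00336. Samples of 12 months lay between: in males both genes were called from 3 to 12 months, H2-DMa at 0.44 ± 0.10 (SE; adjusted p = 0.00777) and H2-DMb1 at 0.48 ± 0.07 (SE; adjusted p = 0.000123), where 13.9% of all genes tested were called. In females neither was, at 0.32 ± 0.10 (SE; adjusted p = 0.0673) and 0.21 ± 0.07 (SE; adjusted p = 0.0652), where 2.94% were called. From 12 to 24 months H2-DMa rose in females by 0.47 ± 0.10 (SE; adjusted p = 0.00558), where 5.44% of all genes tested were called. No member was called from 12 to 24 months in males, where 9.73% of genes were, and there H2-DMa differed by 0.24 ± 0.11 (SE; adjusted p = 0.161) and H2-DMb1 by 0.20 ± 0.07 (SE; adjusted p = 0.0857). The median difference over the 6 tested members was 0.20 in females and 0.19 in males from 3 to 24 months, beside 0.05 and 0.04 over all genes tested.

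Cd74 and the chain genes showed no called difference with age in either sex. Cd74 was at 34.4, 26.1, 43.0, 36.0 and 29.3 RPKM in females of 3 months and 37.8, 35.7, 36.0 and 49.1 RPKM in those of 24 months, with 0.23 ± 0.21 (SE; adjusted p = 0.464). In males it was at 49.2, 25.7, 25.9, 31.6 and 23.7 RPKM at 3 months and 36.7, 32.1, 32.5 and 43.6 RPKM at 24 months, with 0.25 ± 0.21 (SE; adjusted p = 0.419). Groups overlapped in both sexes. H2-Aa differed from 3 to 24 months by 0.17 ± 0.17 (SE; adjusted p = 0.52) in females and 0.14 ± 0.17 (SE; adjusted p = 0.613) in males, and H2-Eb1 by -0.17 ± 0.16 (SE; adjusted p = 0.529) and -0.03 ± 0.16 (SE; adjusted p = 0.932). Males of 12 months held 1 low library, in which Cd74 was 21.9 RPKM against 44.7 to 51.5 RPKM in the other three. Without it Cd74, H2-Aa and H2-Ab1 were also called as higher at 12 than at 3 months in males, giving 5 members. The share of all genes called in that fit is not given here, so the count has no background beside it.

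**Figure D3:**
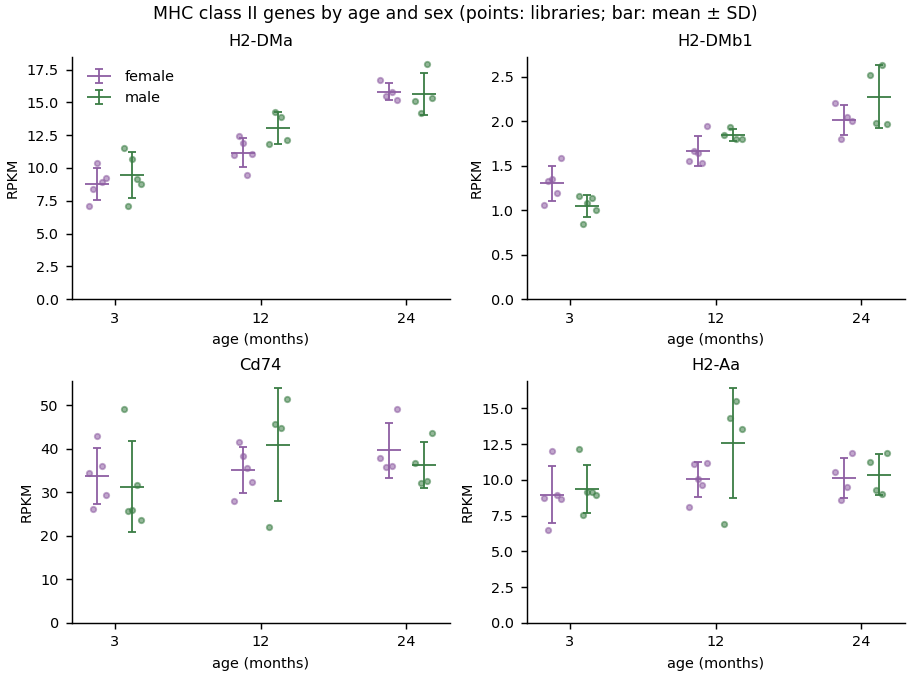
RPKM of H2-DMa, H2-DMb1, Cd74 and H2-Aa at 3, 12 and 24 months in females (purple) and males (green), with a point per library and the mean ± SD of 4 or 5 libraries. H2-DMa goes from means of 8.78 and 9.44 RPKM at 3 months to 15.8 and 15.6 RPKM at 24 months, while Cd74 and H2-Aa overlap across ages.

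No member differed between females and males at 3, 12 or 24 months, where 0.289%, 0.578% and 0.817% of genes tested were called. At an unadjusted p under 0.05 the 1 member was H2-DMb1 at 3 months, higher in females by 0.17 ± 0.07 (SE; adjusted p = 0.302). The 3 to 24 month effect in females minus that in males was 0.10 ± 0.15 (SE; adjusted p = 0.825) for H2-DMa and -0.28 ± 0.10 (SE; adjusted p = 0.214) for H2-DMb1, and none of the members was called, where 0.0916% of genes tested were.

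Ratios within a library remove a factor that both genes share, such as its depth. RNA from other cells in a pulldown would not cancel, and in input the ratio of H2-DMa to H2-Aa was 1.69 to 4.50. The part of such RNA in the pulldown ratios was not tested. The ratio of H2-DMa to H2-Aa was 0.485, 0.397, 0.558 and 0.642 in saline pulldowns and 2.62, 1.93 and 2.44 after LPS. It was 1.25, 1.01 and 1.25 in the other saline group and 4.40, 3.38 and 1.95 after Poly(I:C). In both studies the groups did not overlap, and here the 4 saline pulldowns of the LPS study lay close together. With age the ratio went from 0.810 to 1.29 at 3 months to 1.28 to 1.81 at 24 months in females and from 0.938 to 1.17 to 1.29 to 1.99 in males. Male groups of these 2 ages did not overlap, and female groups met at their edges. At 12 months the ratio was 0.982 to 1.35 in females and 0.896 to 1.71 in males. The male median at 12 months, 0.945, was not above that at 3 months, 0.982. In APP/PS1 it was 1.13 to 1.75, overlapping the controls at 0.938 to 1.45, and with TauP301L it was 0.525 to 0.906, inside the range of 0.413 to 1.07 with GFP.

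The ratio of Cd74 to H2-Aa was 3.27 to 4.46 after saline and 6.11 to 7.04 after LPS, and 3.62 to 5.05 after saline and 5.66 to 6.64 after Poly(I:C). It was 6.08 to 7.29 with GFP and 7.80 to 8.88 with TauP301L, without overlap, although neither gene alone was called. All ageing, APP/PS1 and APP/PS1 control libraries lay between 2.65 and 4.66. The ratio of Cd74 to H2-Ab1, the other I-A chain gene, did overlap between the vectors, at 5.59 to 6.38 with GFP and 5.94 to 8.14 with TauP301L. A ratio shows unequal change of its 2 genes and not which of them changed, and these ratios carry no test. The ratio of H2-Aa to H2-Ab1 also differed between the studies, from 0.505 to 0.675 and 0.729 to 0.997 in the 2 saline groups to 1.10 to 1.38 in females of 3 months.

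**Figure D4:**
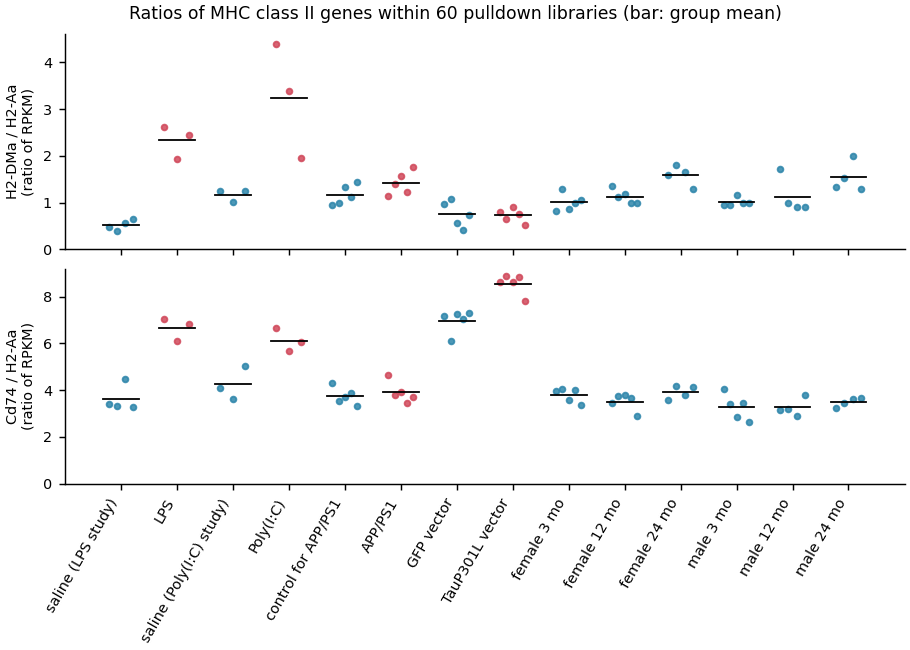
Ratio of RPKM of H2-DMa to H2-Aa (top) and of Cd74 to H2-Aa (bottom) in the 60 pulldown libraries of 14 groups, with a point per library and a bar at the group mean. LPS (1.93 to 2.62) and Poly(I:C) (1.95 to 4.40) lie above their saline controls at the top, and GFP and TauP301L lie above the ageing groups at the bottom.

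The rest of the pathway was described with lists of genes. Factors of the class II promoter (Rfx5, Rfxap, Rfxank, Nfya, Nfyb, Nfyc and Creb1) were rarely called, with 0 of 7 after LPS, after Poly(I:C), in APP/PS1, with TauP301L and from 3 to 24 months in males. In females 1 of 7 was called over those ages, Rfxap, a subunit of RFX, at 0.17 ± 0.06 (SE; adjusted p = 0.0371). Endosomal proteases and a reductase (Ctss, Ctsl, Ctsb, Ctsd, Ctsh, Lgmn and Ifi30) were called as higher for 3 of 7 after LPS (median log2 difference 1.18, all genes 0.11), 6 of 7 after Poly(I:C) (1.40, all genes -0.02), 3 of 7 in APP/PS1 (0.30, all genes -0.03), 5 of 7 with TauP301L (0.54, all genes -0.01), and 7 of 7 from 3 to 24 months in females (1.03, all genes 0.05) and in males (0.97, all genes 0.04). Ifi30, the thiol reductase of antigen processing, rose by 3.08 ± 0.31 (SE; adjusted p = 0.00167) after LPS and 3.15 ± 0.16 (SE; adjusted p = 4.7e-05) after Poly(I:C). Ctss, the protease that trims the invariant chain, rose by 1.06 ± 0.07 (SE; adjusted p = 8.03e-11) from 3 to 24 months in males. Ctsb, a cysteine protease of the lysosome, rose by 0.60 ± 0.08 (SE; adjusted p = 0.00496) in APP/PS1 and 0.71 ± 0.10 (SE; adjusted p = 0.00854) with TauP301L.

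Of the interferon gamma pathway, which induces Ciita, 2 of 6 tested genes were higher after Poly(I:C), 0 of 7 in APP/PS1, 0 of 6 with TauP301L, 5 of 7 from 3 to 24 months in females and 4 of 7 in males. Irf8, a myeloid transcription factor, rose by 0.68 ± 0.06 (SE; adjusted p = 2.45e-08) from 3 to 24 months in males. Ciita itself was under the level filter in all of these. Of co-stimulation and turnover genes, 0 of 6 were called after LPS, 3 of 5 were higher after Poly(I:C), 0 of 5 were called in APP/PS1 and with TauP301L, and 3 of 5 were higher from 3 to 24 months in each sex. Cd86, a ligand of the T cell receptor partner CD28, rose by 0.55 ± 0.07 (SE; adjusted p = 5.72e-06) in females and 0.59 ± 0.07 (SE; adjusted p = 1.8e-06) in males. The cytokine gene Mif, whose product binds CD74, rose by 1.37 ± 0.24 (SE; adjusted p = 0.00914) after LPS, 0.90 ± 0.10 (SE; adjusted p = 0.00124) after Poly(I:C), 0.46 ± 0.12 (SE; adjusted p = 0.00837) in ageing females and 0.45 ± 0.12 (SE; adjusted p = 0.00747) in ageing males. Mif was called as lower in the saline pulldowns than in input, at -0.53 ± 0.20 (SE; adjusted p = 0.0343). The part of RNA from other cells in its rises was not tested. H2-Oa rose by 0.54 ± 0.14 (SE; adjusted p = 0.00745) and 0.69 ± 0.14 (SE; adjusted p = 0.000701) with age in females and males.

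MHC class I, which presents cytosolic peptides, was called in 2 of 6 tested genes after LPS, 6 of 6 after Poly(I:C), 1 of 6 in APP/PS1, 0 of 6 with TauP301L and 6 of 6 from 3 to 24 months in each sex, each time as higher. Its heavy chain gene H2-D1 rose by 1.64 ± 0.10 (SE; adjusted p = 1.26e-11) in ageing females, where H2-DMa rose by 0.79. The difference between the class I and class II lists was not tested.

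Within groups, Cd74 and the chain genes varied together from library to library. Over the 60 pulldowns, deviations from the group mean of log2(RPKM + 1) correlated between Cd74 and H2-Aa at Pearson's r = 0.95 and Spearman's rho = 0.93 (adjusted permutation p = 3.33e-05 for both, the smallest that 100000 resamples within groups and 10 relations allowed here). The values were r = 0.92 and rho = 0.87 with H2-Ab1 and r = 0.89 and rho = 0.82 with H2-Eb1, at the same permutation p. H2-DMa followed Cd74 less closely, at r = 0.66 and rho = 0.54 (adjusted permutation p = 0.000625 and 0.00362), as did H2-DMb1 at r = 0.56 and rho = 0.38 (adjusted permutation p = 0.00451 and 0.0233). For Ciita r was 0.22 and rho 0.27 (adjusted permutation p = 0.185 and 0.0818). Without the 2 GFP libraries farthest from the median of Cd74, r was 0.93, 0.89, 0.85, 0.62, 0.46 and 0.25 in that order of genes. The genes of a library share its yield of microglial RNA, which these correlations include.

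**Figure D5:**
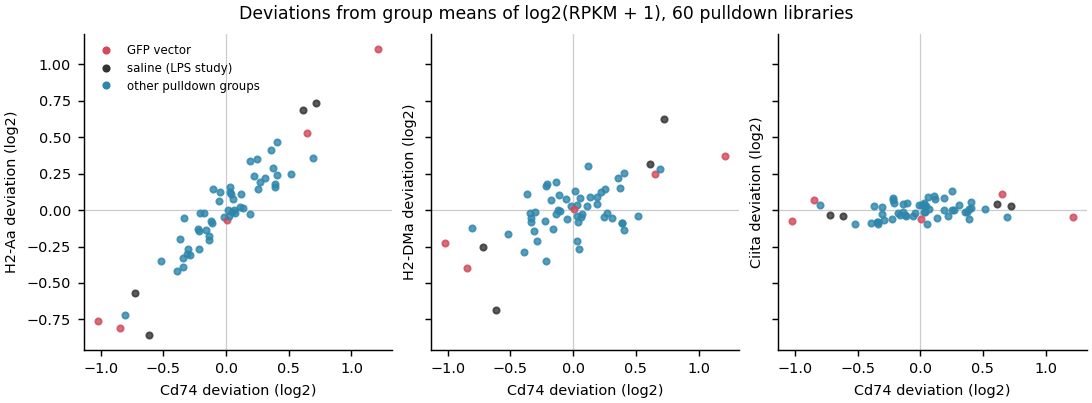
Deviation from the group mean of log2(RPKM + 1) of H2-Aa, H2-DMa and Ciita against that of Cd74, each point 1 of 60 pulldown libraries (red, GFP vector; black, saline pulldowns of the LPS study; blue, the other 12 groups). H2-Aa lies along a line (r = 0.95), H2-DMa scatters about one (r = 0.66), and Ciita stays near 0 across the range of Cd74 (r = 0.22).

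Markers of other cells that can express class II were set beside these levels. The mean log2 level of Cd74, H2-Aa, H2-Ab1 and H2-Eb1 within groups correlated with the homeostatic microglia list at r = 0.66 (rho = 0.49), with 9 markers of perivascular macrophages at r = 0.64 (rho = 0.52), with 10 lymphocyte markers at r = 0.50 (rho = 0.37) and with 8 dendritic cell markers at r = 0.23 (rho = 0.18). Without the 2 farthest libraries r was 0.60, 0.57, 0.40 and 0.09. The libraries left out were saline pulldowns 2 and 3 of the LPS study, or 2 and 4 for lymphocytes. The other saline pulldowns of that study stayed in, so this check did not remove the spread of that group. Summed perivascular macrophage markers were 17.1 to 58.4 RPKM in saline and 56.3 to 73.0 RPKM in LPS pulldowns, with none of the 9 at 0 in either group, and 3 of 9 were called as higher. From 3 to 24 months they went from 14.7 to 19.4 to 18.9 to 27.9 RPKM in females and from 12.9 to 17.1 to 20.1 to 22.5 RPKM in males, with 3 and 5 of 7 tested genes called as higher. Dendritic cell markers summed to 3.87 to 4.44 RPKM after LPS and 5.12 to 8.91 RPKM after saline, and to 6.16 to 6.55 RPKM in females of 24 months against 4.19 to 5.06 RPKM at 3 months. Lymphocyte markers summed to at most 3.81 RPKM in any pulldown, with Cd3d at 0 in all saline pulldowns of the LPS study. Of 5 oligodendrocyte markers 4 were called as higher from 3 to 24 months in females (107 to 126 RPKM against 154 to 180 RPKM summed), and 2 as higher and 1 as lower in males. The part of these cells in the class II results was not tested.

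The genes whose level was most like the mean of Cd74, H2-Aa, H2-Ab1 and H2-Eb1 were sought among 14127 genes. Over the 14 pulldown group means the closest by Pearson's r were Mir5107 (0.96, rho = 0.78, inside Cd74 and so likely the same reads), Gab1 (0.95, rho = 0.82), Mef2a (0.93, rho = 0.42), Bnip3l (0.93, rho = 0.75) and Map4 (0.92, rho = 0.51). By rank, Mef2a and Map4 were thus less alike than by r. Cd74, H2-Aa, H2-Ab1 and H2-Eb1 all had their lowest means in the Poly(I:C) study, below the other groups by more than the spread. With 14 points r can lean on such groups, and their part in these values was not tested. Over the 60 deviations from group means the closest by r were Mir5107 (0.94, rho = 0.92), Csf3r (0.77, rho = 0.65), Edf1 (0.76, rho = 0.65), Cfl1 (0.75, rho = 0.68) and Igtp (0.75, rho = 0.62).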

How the data were processed

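Mouse forebrain RNA was measured in 70 libraries. The authors deposited 1 table of RPKM, made with CASAVA, TopHat2 and featureCounts on mm10, per the submitters' processing notes, no versions or strand setting being named. Of 43346 genes, 27 symbols turned into dates were restored by identifier. Library totals came from the RPKM steps, which were whole reads for 100.0% of values within 0.01 read, and served 1 alternative, voom.

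Fits used limma 3.58.1 in R 4.3.3 (eBayes with trend) on log2(RPKM + 1), with Benjamini-Hochberg adjustment over the genes whose mean in that fit reached 1 RPKM. They covered 20 comparisons, on the compared groups alone, on all 6 ageing groups, or on 4 groups for differences of effects. Correlations used 100000 permutations within groups. The members and lists were chosen with earlier results of these data known. All members are named; list genes are named from the 2 largest calls per list and comparison, and the genes most alike by Pearson's r. A result of the interferon gamma list after LPS is not reported here. The code was tested on simulated data. Other tools were scipy 1.17.1, matplotlib 3.10.9, pandas 2.3.3 and numpy 2.4.6 in Python 3.11.15. Alternatives were the pseudocount (0.1), the filter (none, or 5 RPKM), median-of-ratios scaling, group variance weights, voom, a replicate block, other fit groups, and each library left out.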

Additional observations from a re-analysis of the deposited data

Results flagged for a closer look

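In 4 of the 84 combinations of a member and a group of 4 or 5 libraries, 1 library stood far from the others by Dixon's gap at the 95% level, and chance gives about 1 in 20. Cd74 was 0.470 RPKM in input replicate 3, where the other inputs had a median of 0.607 RPKM. Cd74 was 49.1 RPKM in replicate 5 of the 24-month females, against a median of 36.0 RPKM. H2-Eb1 was 5.56 RPKM in TauP301L replicate 5, against 3.93 RPKM. H2-DMb1 was 1.79 RPKM in GFP replicate 5, against 0.780 RPKM. No difference of effects between study arms or sexes was called for a member.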

How the results depend on the processing

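Of 2080 member values under alternatives, 2013 kept their direction and side of the threshold, 45 lost a call, 22 gained one and none reversed as a called value, while 131 uncalled values changed sign. The numbers of members called changed as follows. With a mean of at least 5 RPKM, 3 in place of 5 were called in pulldown against input, 1 in place of 2 after LPS, from 3 to 24 months in each sex and from 3 to 12 months in males, 0 in place of 1 after Poly(I:C), and 1 in place of 0 from 3 to 12 months in females; members under that filter were not tested. For saline pulldown against sorted cells (1), 2 were called with scaling and 0 with variance weights, in the fit of the 4 LPS-study groups and without saline pulldowns 3 and 4. For LPS (2), 0 were called with a pseudocount of 0.1, without a filter, with scaling and in the fit of 4 groups, where 189 in place of 1720 genes in all were called; that total was 1060 without a filter, 743 at 5 RPKM, 744 with the block, 955 without saline pulldowns 3 and 4 and 397 without LPS pulldown 4. For Poly(I:C) (1), 0 were called with scaling and with voom, and for APP/PS1 (1), 0 without a filter (85 in place of 189 genes in all, and 47 with the block). For TauP301L 161 genes were called, 695 with voom and 22 with the block, and for LPS in sorted cells 72, none without a filter and 1227 in the fit of 4 groups; no member was among them. From 3 to 12 months, 1 was called in females with variance weights or voom, and 1 in place of 2 in males in a fit of those groups alone (507 in place of 1969 genes). From 12 to 24 months in males, 1 was called with scaling and 2 with voom. Scaling moved the median of all genes from 0.41 to 0.02 in pulldown against input and from 0.11 to -0.05 after LPS. Leaving out 1 library gave 0 to 4 calls against sorted cells, 0 to 2 after LPS, 0 to 1 after Poly(I:C), 0 to 1 in APP/PS1, 0 to 2 from 3 to 12 months in females, 2 to 5 in males, and 0 to 1 from 12 to 24 months in males. The cause of these changes was not tested. At a pseudocount of 0.1 the correlation with dendritic cell markers was 0.40. Deviations of same-numbered libraries correlated at -0.55 to 0.20, not above 0.1 for every pair of any comparison, so numbers were not taken to pair libraries. A pulldown and an input of the same number may still come from 1 lysate, which such correlations cannot settle. The 5 members called in pulldown against input stayed called with a replicate block. With a replicate block, 0 members were called in saline pulldown against sorted cells, after LPS and in APP/PS1. Depth limits Ciita and H2-DMb1 in input, the latter at 4 to 10 reads.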
